A study of Mus musculus with 5 samples.

Results

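Transcripts of the transforming growth factor beta (TGF-β) and bone morphogenetic protein (BMP) pathway were followed in mouse Neuro-2A (N2A) neuroblastoma cells after knockdown of Upf1, the RNA helicase required for nonsense-mediated mRNA decay (NMD). The gene set held 44 genes of the 55573 in the count table, chosen by name as ligands, receptors, SMAD proteins, regulators and targets. Gdf11 was selected on its strong rise in these same libraries, so its values are given as a description without a test, and counts are over the other 43 genes. All 44 symbols were found in the table.

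The cells grew in DMEM/F-12 medium with fetal bovine serum and were transfected with 60 pmol of siRNA. The siCtl group (n = 2, replicates 1 and 3) received the commercial siRNA Silencer Negative Control #1, and the siUpf1 group (n = 3, replicates 1, 2 and 3) received an siRNA against Upf1. All 5 libraries were made from polyadenylated RNA of this 1 line, and a single control siRNA stands against the Upf1 siRNA. The labels do not say whether the libraries came from separate cultures, although the study describes the blots of its knockdown as repeated in independent experiments, so p-values measure the spread between these samples, which may be technical. In bulk RNA, fewer cells of a type and less RNA per cell cannot be told apart.

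Ligands of this family bind a type II receptor, a kinase that phosphorylates a type I receptor, which in turn phosphorylates receptor SMADs. TGF-β, the activins and GDF11 signal mainly through SMAD2 and SMAD3, and BMPs through SMAD1, SMAD5 and SMAD9. Both branches share SMAD4, are held back by SMAD6, SMAD7 and the SMURF ubiquitin ligases, and meet the corepressors SKI, SKIL (SnoN) and TGIF1 in the nucleus. In neural tissue GDF11 is known for limiting the production of new neurons, and BMPs for switching on the Id genes, which restrain differentiation.

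The libraries held 20402205 to 27717594 reads assigned to genes. Upf1 itself fell to 46.8% of its siCtl level, from 5230 ± 18.1 (SD, n = 2) to 2449 ± 46.6 (SD, n = 3) normalized read counts. Of 16 neuroblastoma and neuronal markers, 13 had a mean of at least 20 normalized counts, while Nefl and Nefm were at or near 0. Their summed normalized count was 49354 and 49806 in siCtl and 57431 to 61117 in siUpf1. Of 9 fibroblast markers 4 passed 20 counts, with Col3a1 and Lum at 0 in every library, and the summed count was 650 to 678 in siCtl against 562 to 590.1 in siUpf1. Of 10 markers of other cell types, Pecam1 and Cd68 passed 20 counts, and the sum was 282 to 286 in siCtl against 191 to 205 in siUpf1. These sums moved with the groups, and their part in the results below was not tested.

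Gdf11 (ENSMUSG00000025352.6, chr10:128882295-128891718 in GRCm38) encodes a secreted ligand related to myostatin. It had 241 and 229 normalized counts in the siCtl libraries and 1419, 1374 and 1389.7 in the siUpf1 libraries. Every siUpf1 library lay above both siCtl libraries, in a gene picked for its rise in these same libraries. The groups did not overlap for 69.4% of all tested genes. The means were 235 ± 8.37 (SD, n = 2) and 1394 ± 22.5 (SD, n = 3), which is 5.93-fold or 2.57 on the log2 scale. Per length, Gdf11 moved from rank 30 to rank 12 of the 44 genes, from 2.29 ± 0.0631 to 13.8 ± 0.575 RPKM (reads scaled to exon length in kilobases and to library size).

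The representative 3′ untranslated region (3′ UTR) of Gdf11, 2811 nt long in GENCODE M21, held the 7-mer GCAGTAC. Earlier work on these libraries had found this 7-mer more often in 3′ UTRs of mRNAs that rose, so its presence was itself picked from the readout. It was searched on the mRNA strand and stood in 652 of 12570 tested mRNAs (5.19%) and in 8 of the 44 pathway genes. The sites in Gdf11, Tgfb3, Tgfbr1, Acvr2a and Smad5 are printed here. These 5 genes were higher, Gdf11 having been picked for its rise. Among all tested mRNAs with the 7-mer, 49.1% were called higher. The sites in Smad2, also called higher, in Smad4, called lower, and in Smad7, not called, are not printed. A site in Bmpr1a is added for contrast: it is the 7-mer AACCTTG, the match to bases 2 to 8 of the sense strand of the Upf1 siRNA. Bmpr1a was picked as the only holder of AACCTTG in the set that was called lower. Of the other holders, Skil was called higher, and Acvr2b and Id2 were not called. Each stretch reads 5′ to 3′ along the mRNA, with the 7-mer in capitals, in GRCm38.
Gdf11, chr10:128883782-128883806, minus strand: tggaatataGCAGTACctggatgca
Tgfb3, chr12:86057368-86057392, minus strand: ttgctcactGCAGTACatctgctct
Tgfbr1, chr4:47414121-47414145, plus strand: tttgggagtGCAGTACagcttcatg
Acvr2a, chr2:48902958-48902982, plus strand: attcaaccaGCAGTACgttttttat
Smad5, chr13:56739604-56739628, plus strand: tgtgggtagGCAGTACtcacagtga
Bmpr1a, chr14:34411743-34411767, minus strand: tttttcaagAACCTTGcatctctga

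Among the 43 other genes, 35 had enough reads to be tested with DESeq2, and 15 were called higher and 6 lower in siUpf1 at an adjusted p under 0.05. That is 42.9% and 17.1% of the 35, beside 22.0% called higher and 22.9% called lower among all 15191 tested genes. The median log2 fold change was 0.14 for the 35 genes and -0.00 for all tested genes, and the median size of change without its sign was 0.28 in both. With edgeR 17 of the 35 were called higher and 9 of the 35 lower, beside 27.5% and 27.1% of all genes that edgeR tested. The low share of lower calls thus depended on the tool, with 6 lower in DESeq2 and 9 in edgeR. The libraries of the groups did not overlap for 28 of the 35 genes (80%), with siUpf1 above in 18 and below in 10, where 69.4% of all tested genes did not overlap. For a single gene, exact permutation of 2 siCtl and 3 siUpf1 labels allows no p under 0.1, so single genes rest on the fit across all genes.

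**Figure D1:**
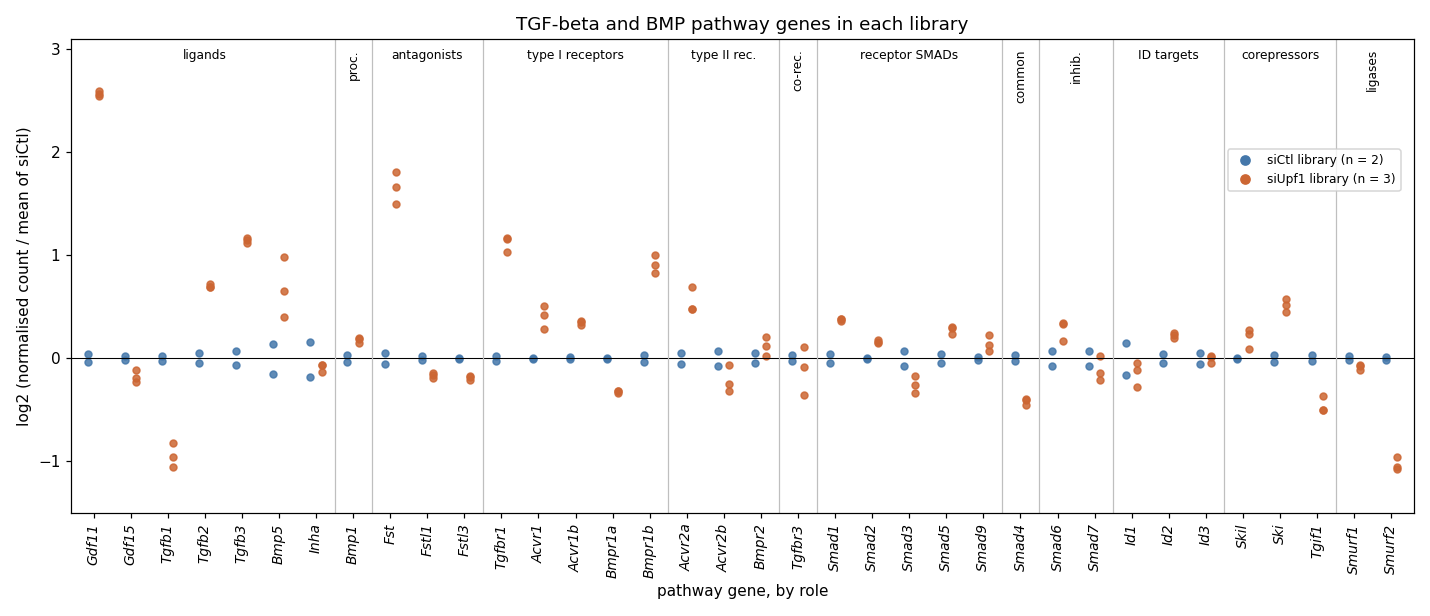
Each point is 1 library's log2 ratio of normalized count to the siCtl mean, for Gdf11 and the 35 other tested pathway genes grouped by role, with siCtl (n = 2) in blue and siUpf1 (n = 3) in orange. Gdf11, Fst, Tgfb3 and Tgfbr1 have all siUpf1 points above 1 on the log2 scale, while Tgfb1 and Smurf2 sit near -1.

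Of the 35 genes, 7 were called higher (20%) and 2 lower (5.71%) by at least 0.5 on the log2 scale, where 10.2% and 8.31% of all tested genes passed the same limit. At 1 or more on the log2 scale stood Fst, Tgfb3 and Tgfbr1, and Smurf2 at -1 or less. These are 8.57% and 2.86% of the 35 genes, where 2.79% of all tested genes rose and 2.06% fell that far. The genes nearest to the 0.5 limit were Ski (0.51) and Acvr2a (0.55) inside it, and Tgif1 (-0.46) and Smad4 (-0.42) outside it.

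**Figure D2:**
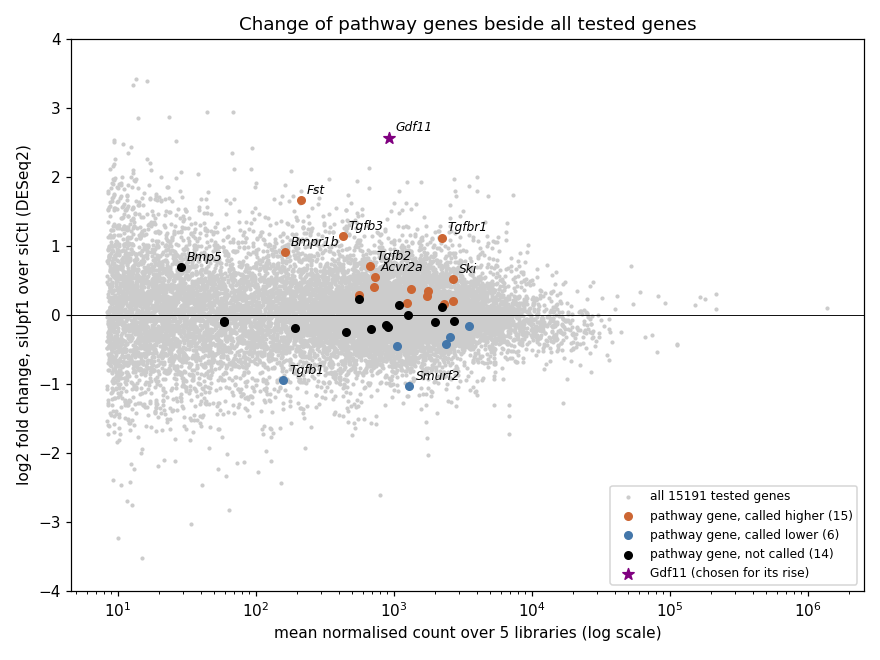
The log2 fold change of siUpf1 over siCtl is plotted against the mean normalized count over the 5 libraries (log scale), with all 15191 tested genes in gray and 2 genes beyond the plotted range left out. Pathway genes are colored by call (15 higher, 6 lower, 14 not called) and lie among the gray points, with Gdf11, marked by a star, at 2.57.

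The ligands other than Gdf11 split by isoform of TGF-β. Tgfb3 (ENSMUSG00000021253.7, chr12:86056745-86079041) had 236 and 259 normalized counts in siCtl and 555, 548 and 538 in siUpf1. Its log2 fold change was 1.14 (SE 0.123, adjusted p = 2.41e-19). Tgfb2 (ENSMUSG00000039239.14, chr1:186622792-186705989) rose as well, from 477 and 511 normalized counts to 816, 797 and 799 (log2 fold change 0.70, SE 0.0968, adjusted p = 4.25e-12). Tgfb1 (ENSMUSG00000002603.15, chr7:25687002-25705077) went the other way, from 226 and 219 normalized counts to 115, 125.5 and 107 (log2 fold change -0.95, SE 0.187, adjusted p = 2.07e-06). The libraries of the groups did not overlap for any of these isoforms, nor for 69.4% of all tested genes.

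In RPKM the 3 isoforms summed to 7.76 and 8.31 in siCtl and 13.5, 12.7 and 12.9 in siUpf1. The shares depend on the length of all annotated exons, which was 5042 nt for Tgfb1, 5791 nt for Tgfb2 and 3383 nt for Tgfb3. Tgfb1 made up 22.8% and 20.8% of that sum in siCtl and 6.94%, 7.67% and 6.67% in siUpf1. Tgfb3 made up 35.4% and 36.8% in siCtl and between 49.94% and 50.05% in siUpf1. The share of Tgfb2 was 41.8% and 42.4% in siCtl and 42.4% to 43.3% in siUpf1. The isoform mix thus moved from Tgfb1 to Tgfb3, with Tgfb2 near the same share of a larger sum.

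**Figure D3:**
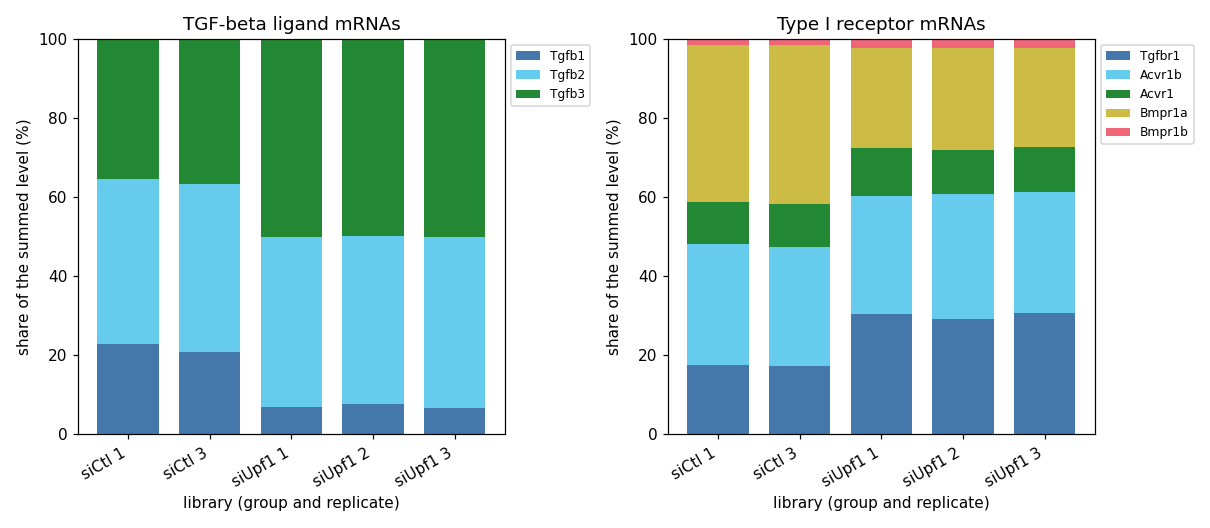
Stacked bars give each library's share (%) of the summed RPKM of the 3 TGF-β ligand mRNAs (left) and of the 5 type I receptor mRNAs in the gene set (right). Tgfb1 shrinks from over 20% of the ligand sum in both siCtl libraries to under 8% in the siUpf1 libraries, and Tgfbr1 grows from 17.7% and 17.2% of the receptor sum to between 29.2% and 30.8%.

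The remaining ligands were not called by DESeq2 or had almost no reads. Gdf15, a stress-induced ligand, had 981 ± 20.4 normalized counts in siCtl and 866 ± 36.3 in siUpf1, and missed the threshold with DESeq2 (log2 fold change -0.18, adjusted p = 0.0661) while edgeR called it lower (adjusted p = 0.0168). Bmp5 had 23.1 and 18.9 normalized counts in siCtl and 27.6, 41.4 and 33.0 in siUpf1, and at this depth the difference was not called (log2 fold change 0.69, SE 0.449, adjusted p = 0.215). Inha, the inhibin alpha subunit, gave -0.09 on the log2 scale with overlapping groups. Bmp4, Bmp6 and Bmp7 had 0 reads in all 5 libraries, which allows up to 3 reads per library by counting error alone. Mstn, which encodes myostatin, Bmp2, and the activin beta subunit genes Inhba and Inhbb had at most 2 reads in any library.

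Outside the cell, the antagonists and the processing enzyme did not move together. Fst (ENSMUSG00000021765.9, chr13:114452290-114458951) encodes follistatin, which binds and neutralizes activins, myostatin and GDF11. It had 89.1 and 96.2 normalized counts in siCtl and 293, 261 and 324 in siUpf1, the highest fold change after Gdf11 in this set (3.16-fold, log2 1.66, SE 0.184, adjusted p = 3.03e-18). Its representative 3′ UTR was the shortest of the tested pathway genes, at 81 nt, and held no GCAGTAC. Of the related follistatin-like genes, Fstl1 was called lower (log2 fold change -0.17, adjusted p = 0.00364) from 3746 ± 73.0 to 3341 ± 52.7 normalized counts, and without siCtl replicate 1 its adjusted p was 0.108. Fstl3 gave -0.19 and was not called (adjusted p = 0.381). Bmp1, a metalloprotease that frees GDF11 and myostatin from their propeptides, was called higher by 0.18 (adjusted p = 0.0368), and that call was lost whichever library was left out, with adjusted p between 0.0664 and 0.323.

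Of the 5 type I receptors in the set, 4 were called higher and 1 lower, beside 22.0% and 22.9% of all tested genes. Tgfbr1 (ENSMUSG00000007613.15, chr4:47353222-47414931), the kinase through which TGF-β and GDF11 signal, had 1337 and 1289.7 normalized counts in siCtl and 2924, 2676 and 2956 in siUpf1. The groups were far apart, at a log2 fold change of 1.12 (SE 0.0664, adjusted p = 8.41e-62). Bmpr1b (ENSMUSG00000052430.15, chr3:141837136-142169425), a BMP receptor with low counts here, rose from 109 and 104 to 213, 188 and 199.7 normalized counts (log2 fold change 0.92, SE 0.191, adjusted p = 8.45e-06). Acvr1 (ALK2, a BMP receptor) and Acvr1b (ALK4, the activin receptor) rose by 0.41 (adjusted p = 0.000112) and 0.34 (adjusted p = 4.3e-07). Bmpr1a (ENSMUSG00000021796.15, chr14:34410734-34503341) was the one that fell, from 2909 and 2922 normalized counts to 2336, 2312 and 2331 (log2 fold change -0.33, SE 0.0552, adjusted p = 2.54e-08).

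The mix of the 5 type I receptors in the set therefore differed between the groups in every library. Acvrl1 and Acvr1c, type I receptors outside the set, were left out. Bmpr1a made up 39.6% and 40.1% of the summed RPKM of the 5 receptors in siCtl and between 24.99% and 25.9% in siUpf1, and Tgfbr1 made up 17.7% and 17.2% in siCtl and 30.6%, 29.2% and 30.8% in siUpf1. In siCtl Bmpr1a was the most abundant type I receptor mRNA per length, at 18.2 RPKM, ahead of Acvr1b at 13.8 RPKM. In siUpf1 Acvr1b (17.8 ± 0.381 RPKM) and Tgfbr1 (17.6 ± 1.37 RPKM) did not differ beyond their spread, and Bmpr1a followed at 14.7 ± 0.468 RPKM.

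Among the type II receptors, Acvr2a (ENSMUSG00000052155.5, chr2:48814109-48903269), which binds activins and GDF11, had 550.3 and 591 normalized counts in siCtl and 919, 792 and 793 in siUpf1 (log2 fold change 0.55, SE 0.102, adjusted p = 3.87e-07). Its close relative Acvr2b gave -0.21 with overlapping groups (adjusted p = 0.0952 with DESeq2 and 0.0406 with edgeR). Of the summed RPKM of Acvr2a, Acvr2b, Bmpr2 and Tgfbr2, Acvr2a made up 24.1% and 24.8% in siCtl and 35.2%, 33.7% and 31.0% in siUpf1. Amhr2, a type II receptor outside the gene set, was left out of this sum. With it the shares of Acvr2a would be lower. Bmpr2 gave 0.12 and the co-receptor Tgfbr3 (betaglycan) -0.11, neither called. Tgfbr2, the type II receptor that TGF-β itself binds, had 3 and 1 reads in the siCtl libraries and 0 in each siUpf1 library, so no fold is given.

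Of the 8 SMAD genes 4 were called higher and 1 lower, beside 22.0% and 22.9% of all tested genes. Smad4, the shared partner of the receptor SMADs, had 2875 and 2759.5 normalized counts in siCtl and 2053, 2147 and 2123 in siUpf1 (log2 fold change -0.42, SE 0.0584, adjusted p = 7.3e-12). The receptor SMADs of the BMP branch, Smad1 and Smad5, rose by 0.37 (adjusted p = 1.33e-06) and 0.28 (adjusted p = 9.91e-05), and Smad9 gave 0.14 (adjusted p = 0.135 with DESeq2 and 0.0389 with edgeR). On the TGF-β side Smad2 was called higher by 0.16 (adjusted p = 0.0128) and Smad3 gave -0.25 (adjusted p = 0.0679 with DESeq2 and 0.0170 with edgeR). Without siCtl replicate 1, siCtl replicate 3 or siUpf1 replicate 3, Smad2 had an adjusted p of 0.120, 0.150 and 0.0752.

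The inhibitory SMADs had unlike values. Smad6, which acts mainly on the BMP branch, was called higher by 0.28 (adjusted p = 0.0232), and the call was lost without siCtl replicate 1, siCtl replicate 3, siUpf1 replicate 1 or siUpf1 replicate 3, with adjusted p of 0.304, 0.0588, 0.116 and 0.124. Smad7, which acts on both branches, gave -0.11 with overlapping groups (adjusted p = 0.257). Whether the changes of these genes differ from each other was not tested.

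The ubiquitin ligase Smurf2 (ENSMUSG00000018363.16, chr11:106820066-106920715), which marks SMADs and type I receptors for degradation, had the lowest log2 fold change of the 35 tested genes, with Tgfb1 next to it within the SE of Tgfb1. It had 1893 and 1856 normalized counts in siCtl and 891, 966 and 904 in siUpf1, with a log2 fold change of -1.03 (SE 0.0734, adjusted p = 1.04e-42). Smurf1 gave -0.08 (adjusted p = 0.228), from 2852 ± 62.0 to 2694 ± 46.5 normalized counts. Per length, Smurf2 went from rank 11 to rank 24 of the 44 genes, from 12.1 to 6.00 RPKM.

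Of the 3 nuclear corepressors, 2 were called higher and 1 lower, beside 22.0% and 22.9% of all tested genes. Ski (ENSMUSG00000029050.15, chr4:155154075-155222592), which blocks SMAD complexes on DNA, rose from 2195 and 2092 normalized counts to 2924, 3061 and 3197 (log2 fold change 0.51, SE 0.0606, adjusted p = 3.18e-16). Its relative Skil was called higher by 0.21 (adjusted p = 0.00348), with an adjusted p of 0.0816, 0.0625 and 0.0549 without siCtl replicate 1, siCtl replicate 3 and siUpf1 replicate 3. Tgif1 (ENSMUSG00000047407.17, chr17:70844205-70853546), a homeodomain corepressor, fell from 1249.5 and 1302 normalized counts to 986, 902 and 901 (log2 fold change -0.46, SE 0.0808, adjusted p = 1.13e-07).

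None of the 3 Id genes, textbook targets of BMP signaling, was called by DESeq2, which called 22.0% of all tested genes higher and 22.9% lower. Id1 had 831 and 1030.2 normalized counts in siCtl and 769, 858 and 900.3 in siUpf1, with the siCtl libraries further apart than the group means (log2 fold change -0.15, adjusted p = 0.264). Id3 had 1222 and 1319.9 in siCtl and 1290.5, 1230.0 and 1279 in siUpf1, a log2 fold change of -0.00 (adjusted p = 0.97). Id2 had 498 and 530.2 normalized counts in siCtl and 602, 589.9 and 608 in siUpf1. Its groups did not overlap, as for 69.4% of all tested genes. The call of Id2 depended on the tool (log2 fold change 0.22, adjusted p = 0.0650 with DESeq2 and 0.00848 with edgeR). Id1 and Id3 were among the most abundant of the set per length: in siCtl Id1 stood at 31.8 ± 5.06 RPKM and Id3 at 28.1 ± 1.76, with Fstl1 (30.2 ± 0.344) and Smad4 (30.1 ± 0.630) between them, and these 4 neighbors did not differ beyond the spread of Id1.

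**Figure D4:**
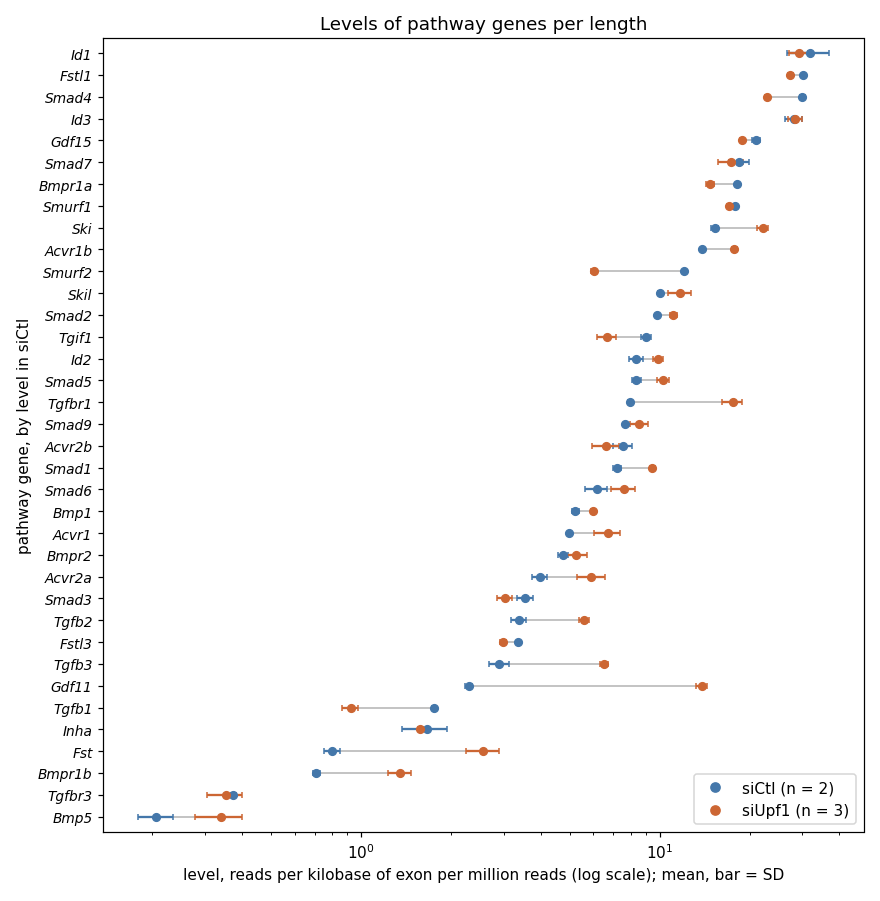
Mean level per length (RPKM, log scale, bars = SD) of the 36 pathway genes above 0.1 RPKM in siCtl (blue, n = 2) and siUpf1 (orange, n = 3), ordered by the siCtl level. Gdf11 makes the longest move, from 2.29 to 13.8 RPKM, and Smurf2 moves down from 12.1 to 6.00 RPKM.

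A second list of 99 genes covered other parts of the pathway. Of these 55 were tested, 21 were called higher (38.2%) and 7 lower (12.7%), with a median log2 fold change of 0.13, beside 22.0% and 22.9% of all tested genes. With edgeR 23 of 54 were called higher (42.6%) and 13 lower (24.1%), beside 27.5% and 27.1%, so the low share of lower calls depended on the tool. Among 20 further target genes 15 were tested, and 5 were called higher (33.3%) and 4 lower (26.7%), beside the same 22.0% and 22.9%. Hey1, a transcriptional repressor induced by BMP and Notch, had 159 and 169.8 in siCtl and 395, 425 and 421 in siUpf1 (log2 fold change 1.33, SE 0.144, adjusted p = 5.08e-19). All siUpf1 libraries of Hey1 lay above both siCtl libraries, and the groups did not overlap for 69.4% of all tested genes.

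The BMP co-receptor Rgmb rose from 90.6 ± 6.60 (SD, n = 2) to 225 ± 12.3 (SD, n = 3) normalized counts (log2 fold change 1.31, SE 0.192, adjusted p = 8.05e-11). Usp15, a deubiquitinase that counters SMURF2 at the TGF-β type I receptor, rose from 2474 ± 126 to 5212 ± 407 (log2 fold change 1.08, SE 0.0648, adjusted p = 1.26e-59). Tgfbr1 and Usp15 were higher and Smurf2 was lower, each without overlap between the groups, which held for 69.4% of all tested genes. Whether these changes are linked was not tested.

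Sequence features did not line up with 1 direction. Of the 8 genes whose 3′ UTR held GCAGTAC, Gdf11, Tgfb3, Tgfbr1, Acvr2a, Smad5 and Smad2 were higher, Smad4 was called lower and Smad7 was not called. Among all tested mRNAs, 49.1% of holders were called higher and 15.5% lower, beside 23.2% and 27.4% of mRNAs without it. The 7-mer was picked because it was more frequent in mRNAs that rose in these libraries, so this gap is no independent result. Gdf11 was likewise picked for its rise. The Bmpr1a site, AACCTTG, was also held by Acvr2b, Id2 and Skil, of which Skil was called higher and the others were not called. Among all tested mRNAs with AACCTTG (9.88%), 21.8% were called higher and 37.2% lower, beside 24.8% and 25.7% of mRNAs without it. The match to the antisense strand, GATAATT, stood in Inhba and Skil and in 7.72% of mRNAs, of which 28.0% were called higher and 27.4% lower, beside 24.2% and 26.8% of mRNAs without it. Any part of these sites in the changes was not tested.

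A transcript annotated as an NMD substrate was present in 4 of the 44 genes, Bmp1, Bmpr1b, Smurf2 and Tgfb1. It was present in 28.5% of all tested mRNAs, while the 44 include 8 genes not tested. Of the 4 genes, Bmpr1b and Bmp1 were called higher and Tgfb1 and Smurf2 lower, while Gdf11 had no such annotated transcript. The shares called among all mRNAs with such a transcript were not computed, so these calls have no baseline. The median 3′ UTR length was 1570 nt in the 35 tested pathway genes and 999 nt over all tested mRNAs. It was 2822 nt in the 15 called higher, 944.5 nt in the 6 called lower and 1552 nt in the 14 not called. The ranges overlapped, at 81 to 6233 nt for those called higher and 135 to 3810 nt for those called lower. Lengths by call over all mRNAs were not computed, and the difference was not tested. Exons of Smad5, Smurf2 and Tgfbr3 share 100, 58 and 297 nt with an overlapping gene model on the same strand, so a small part of their reads is uncertain.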

How the data were processed

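Polyadenylated RNA of 2 siCtl and 3 siUpf1 N2A libraries was sequenced. The deposited table gave raw read counts for each gene, which the authors made with STAR 2.7.0f on GRCm38.p6 and featureCounts (Subread 1.6.4), on the strand of the stranded kit. They were neither normalized nor pooled. The 20402205 to 27717594 counts per library set the precision, and counting error is a lower limit because PCR duplicates are unknown.

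DESeq2 1.42.0 (R 4.3.3) compared siUpf1 with siCtl over all 55573 genes, in a model of group alone. Size factors were medians of ratios, genes were filtered independently on their mean, and Wald p-values were adjusted by Benjamini-Hochberg, with calls under 0.05. The study's methods name DESeq2. The quasi-likelihood test of edgeR 4.0.16 was an alternative, as were other size factors, a minimum of 10 counts in 2 libraries, no filtering, a replicate block, omission of each library in turn, and shrinkage of the fold changes. Scripts were tested on simulated data. RPKM used the length of all annotated exons of a gene in GENCODE M21 (GRCm38), which held 99.7% of the gene identifiers. N2A cells may not use all of these exons, so shares and ranks between genes depend on this choice. GENCODE M21 also supplied coordinates and 1 representative 3′ UTR per gene, which may not be the isoform that N2A cells use.

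The genes and lists were chosen with earlier results of these data known. Counts per library are given for Gdf11, for called genes of 20 or more normalized counts on average that changed by at least 0.5 on the log2 scale, for the 2 genes nearest that limit on each side, and, chosen after their values were seen, for Bmp5, Bmpr1a and the Id genes. Other pathway genes are named where called with a mean of at least 50 counts and a log2 change of at least 1. Some results that meet these rules are not reported here.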

Additional observations from a re-analysis of the deposited data

How the results depend on the processing

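Of the 21 calls, none changed direction in any of the 12 alternatives. Leaving out 1 library gave 11 to 14 genes called higher and 5 or 6 lower. Where a siCtl library was left out, the lone siCtl sample was assumed to vary like the siUpf1 samples. The genes that lost their call were Bmp1, Smad2, Smad6, Skil and Fstl1. Bmp1 was also lost with TMM size factors (adjusted p = 0.0508) and without independent filtering (0.0680), and Id2 was gained with the count minimum (0.0439). The median log2 fold change of the 35 genes stayed between 0.12 and 0.17. With edgeR, 13 of the other pathway genes were called lower, in place of 7. The cause was not tested.

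Reversed signs were confined to genes not called, all near 0: Id3 gave 0.00148 with edgeR, 0.0175 with total-count size factors and 0.0163 with the replicate block, and -0.0624 to 0.0499 with 1 library left out. The same omissions gave -0.294 to 0.0168 for Id1, -0.254 to 0.0852 for Inha and -0.218 to 0.00979 for Tgfbr3.

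Libraries with the same replicate number did not deviate together (correlation -0.05 for numbers 1 and 3). No pairs of unlike number are given for comparison, so these values cannot decide whether the numbers pair the libraries. With the replicate block 12 pathway genes were called higher and 5 lower, and 1957 genes higher and 1962 lower over the whole table, beside 3341 and 3481 without it. It lost Bmp1, Smad2, Smad6 and Fstl1.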
